A study of Homo sapiens with 4 samples.

Results

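The genes described here encode proteins that hold epithelial cells to each other, and they were examined for binding of the transcription factors ATOH8 and TCF3 in DU145 cells, a line derived from a human prostate carcinoma. The set was chosen by name, with earlier results of these data known. It held 8 genes out of 19974 protein-coding genes on chromosomes 1 to 22 and X. They were the cadherin genes CDH1 and CDH2, the adhesion molecule gene EPCAM, the tight junction genes OCLN, CLDN1, CLDN4 and CLDN7, and the desmosome gene DSP. A peak was assigned to a gene when its midpoint lay inside the gene or within 50 kb of either end, by RefSeq positions on GRCh38. By this rule 13 of 4997 ATOH8 peaks and 9 of 11390 TCF3 peaks belonged to the set.

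Chromatin was immunoprecipitated through a Flag tag on ATOH8 or through a Myc tag on TCF3. Each immunoprecipitation was 1 library with 1 input library, and the labels name no treatment for any of the 4 libraries. The labels do not say how the tagged proteins were introduced, at what level, or whether endogenous protein was also present. There were no replicates, so no value below has an error estimate and no test was made. Read depth was not known. A peak carried a single score, the authors' own deposited value, which was used only to rank peaks within a list. The ATOH8 scores had a median of 84, a lowest value of 51 and a highest of 8846. The TCF3 scores had a median of 61, a lowest value of 35 and a highest of 19871. Both lists skipped stretches of scores, including the following. No ATOH8 peak scored between 356 and 996, between 280 and 326 or between 189 and 232. No TCF3 peak scored between 280 and 887, 243 and 249, 207 and 212, 120 and 129, or 38 and 41. Peaks of such scores were not analysed here, so no statement that a gene lacks a peak means that the factor was absent from it. Peak lists say nothing of whether a gene was expressed.

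Epithelial cells are joined by adherens junctions, built on cadherins and their catenin partners, by tight junctions, which seal the space between cells, and by desmosomes, which anchor keratin filaments. Loss of E-cadherin and gain of N-cadherin are the classical marks of the epithelial-mesenchymal transition, in which repressors bind short sequences called E-boxes in junction gene promoters. E-boxes, written CANNTG, are also the sequences recognised by basic helix-loop-helix (bHLH) proteins, the class to which ATOH8 and TCF3 belong. TCF3 is an E protein, the usual partner of tissue-specific bHLH factors, and its products E12 and E47 are known as repressors of CDH1 when overexpressed in epithelial cells.

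ATOH8 peaks lay in the windows of 6 of the 8 genes, and 43.6% of all protein-coding genes had one by the same rule. The 6 were CDH1, EPCAM, OCLN, CLDN1, CLDN7 and DSP. TCF3 peaks lay in the windows of 5 of the 8, namely CDH2, OCLN, CLDN1, CLDN7 and DSP, and 53.7% of all protein-coding genes had one. Both factors were listed at 4 genes (OCLN, CLDN1, CLDN7 and DSP), where the share of all protein-coding genes was 28.1%. CDH1 and EPCAM had ATOH8 peaks alone, as did 15.5% of all protein-coding genes. CDH2 had TCF3 peaks alone, as did 25.6%, and CLDN4 had neither.

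With the window narrowed to 5 kb, the same 6 genes kept an ATOH8 peak, against 25.1% of all protein-coding genes. TCF3 peaks then remained at 3 genes (OCLN, CLDN1 and DSP), against 32.9% of all protein-coding genes, and the same 3 carried both factors, against 11.8%. The TCF3 peaks of CDH2 and CLDN7 were all farther off. With the window widened to 100 kb, 7 genes had an ATOH8 peak (55.5% of all protein-coding genes), 6 a TCF3 peak (65.9%) and 5 both (41.6%). With only the higher-scoring 50% of each list, at 50 kb, 6 genes had an ATOH8 peak (27.1%), 3 a TCF3 peak (33.9%) and 2 both (12.1%). With the TCF3 list cut to the length of the ATOH8 list, 3 genes had a TCF3 peak (30.4%) and 2 had both (16.5%). Assigned peaks reached out to 39.4 kb from the gene for ATOH8 and 39.8 kb for TCF3. Where a gene had no assigned peak of a factor, the nearest listed peak was 91.8 kb away or more (TCF3 at CDH1, then ATOH8 at CLDN4, 92.1 kb away).

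**Figure D1:**
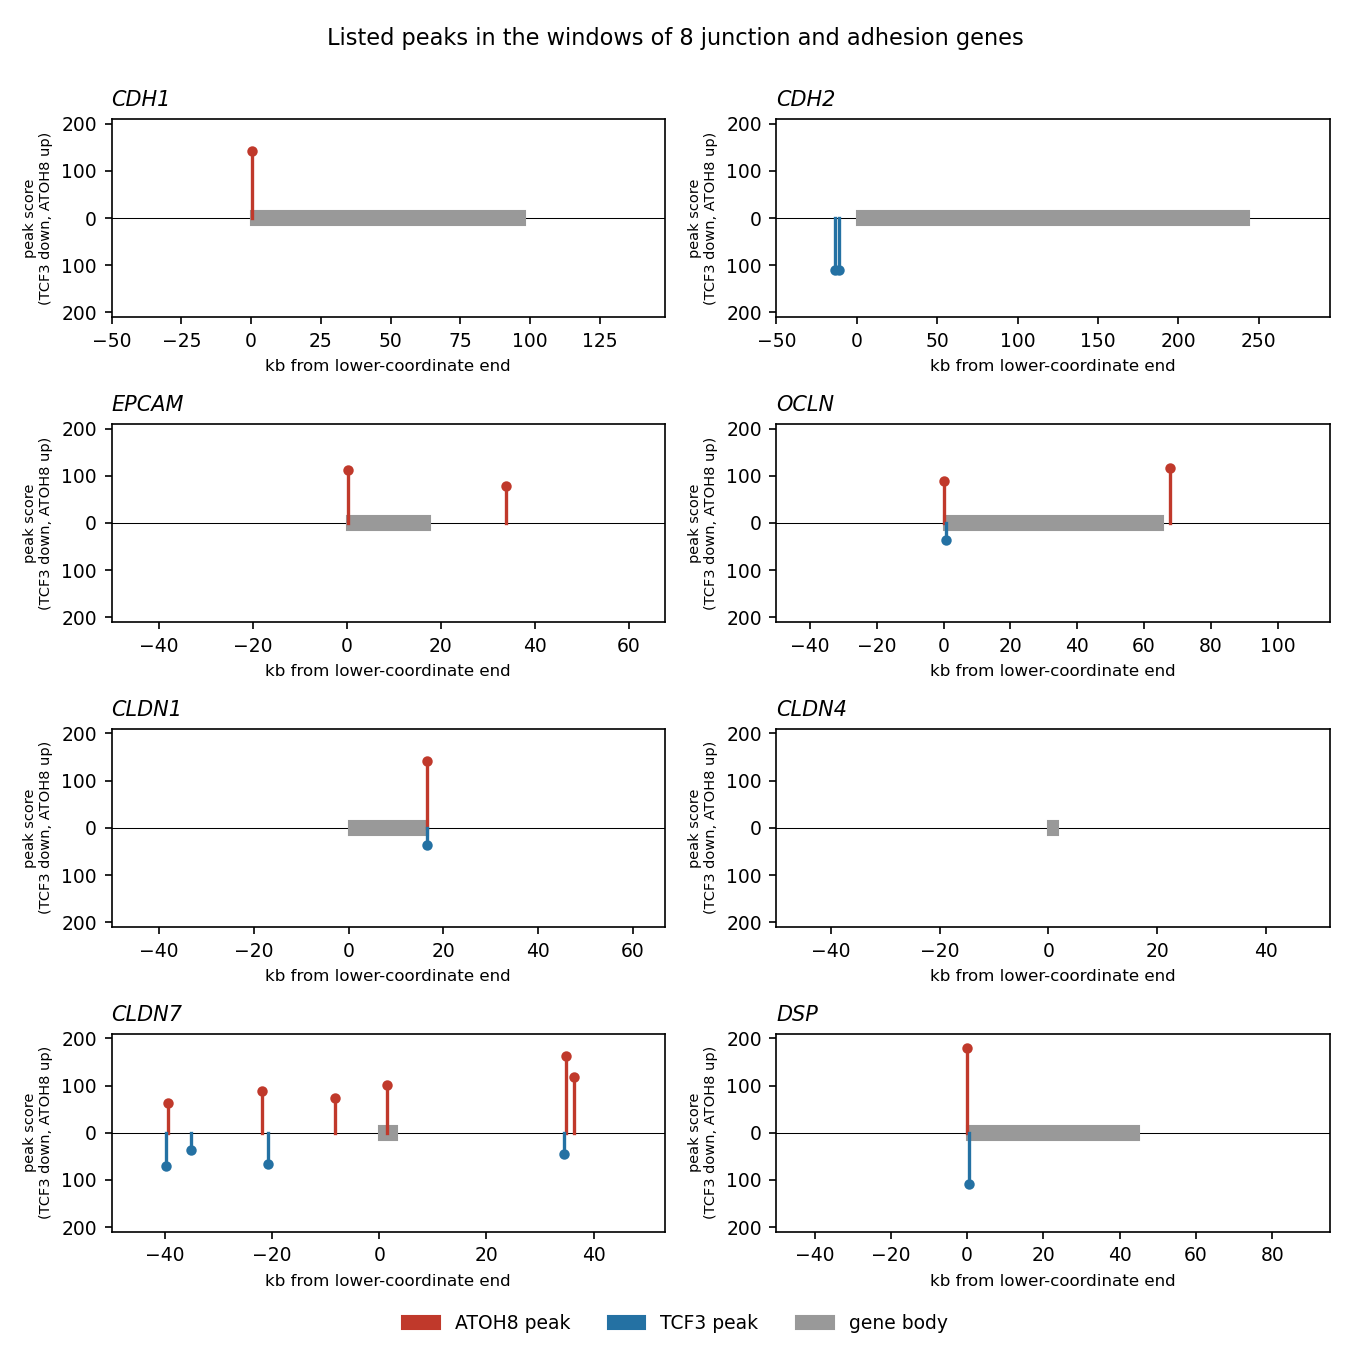
Peaks in the window of each gene, with kb from the lower-coordinate end of the gene on the x axis (each panel has its own scale), the gene body in grey, and the score of each peak upward for ATOH8 and downward for TCF3. Single peaks at a gene end made up the pattern at CDH1, CLDN1 and DSP, the window of CLDN7 held 6 ATOH8 and 4 TCF3 peaks, and the window of CLDN4 was empty.

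ATOH8 peaks stood at the ends of most of these genes. At 5 of the 8 genes an ATOH8 midpoint lay within 1 kb of an end of the gene, where 17.6% of all protein-coding genes had one. The peak at DSP was centred 28.5 bp outside the end, and those inside the gene were centred 102.5 bp from the end at OCLN, 192 bp at CLDN1, 204 bp at EPCAM and 442 bp at CDH1. All 5 peaks covered the end itself. Where the annotation used gave the strand, at DSP, OCLN and CLDN1, this end was the start of the gene. For TCF3 the count was 3 of 8, against 20.3% of all protein-coding genes, and both factors met this limit at 3 of 8, against 6.11%.

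**Figure D2:**
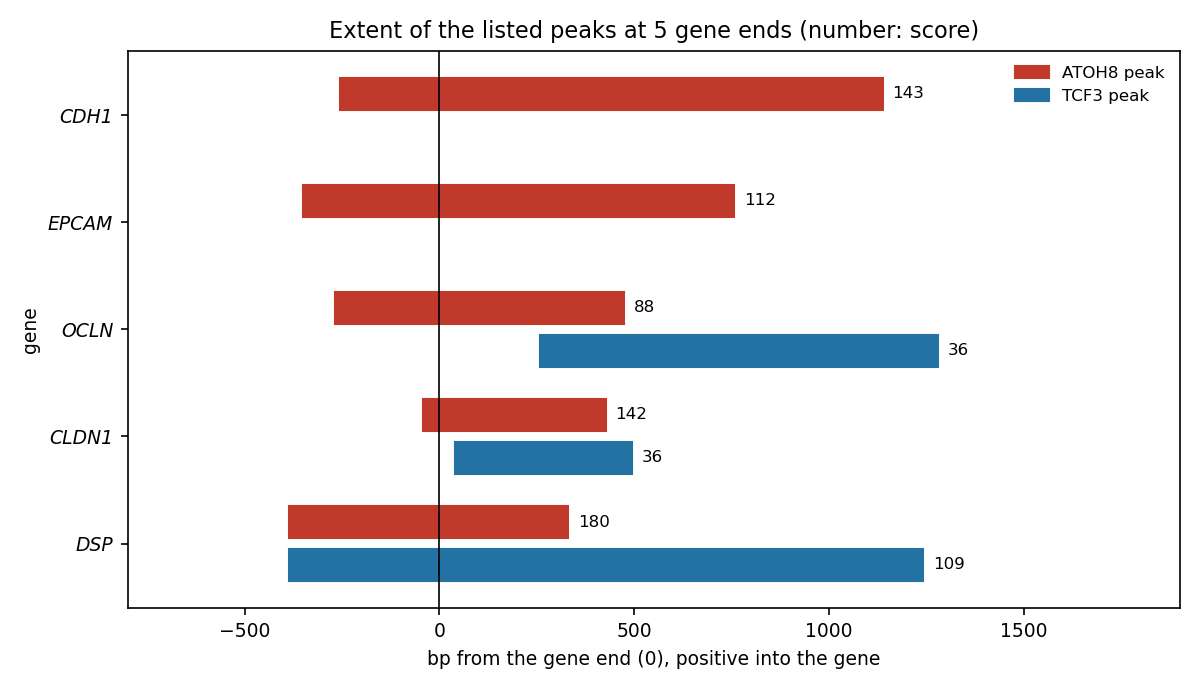
Extent of the ATOH8 and TCF3 peaks at 5 gene ends, in bp from the annotated end with positive values inside the gene, and the score of each peak printed beside it. All 5 ATOH8 peaks cross the end, and of the 3 TCF3 peaks only the DSP peak does.

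DSP encodes desmoplakin, the plaque protein that ties desmosomal cadherins to keratin filaments. It occupies chr6:7541671-7586714 on the plus strand. Its ATOH8 peak, chr6:7541284-7542001, had a score of 180, the highest of the 13 peaks in the set, and ranked 303rd in its list, above 93.7% of the peaks. Its TCF3 peak, chr6:7541284-7542912, had a score of 109 and stood above 81.5% of the TCF3 peaks. The whole of the ATOH8 peak, 717 bp, lay within the TCF3 peak, and both were listed with the same first position. Of 1425 ATOH8 peaks that shared a base with a TCF3 peak, 17 (1.19%) had the same start as their partner. The antisense transcript gene DSP-AS1 overlaps this end, so the peaks cannot be given to either gene alone.

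CLDN1 encodes claudin-1, a sealing component of tight junctions, and lies on the minus strand at chr3:190305707-190322446. Its ATOH8 peak, chr3:190322019-190322489, had a score of 142 and stood above 84.2% of the list. The TCF3 peak, chr3:190321951-190322405, had a score of 36. That score was shared by 1542 TCF3 peaks and exceeded that of 0.0263% of the list. The overlap was 386 bp, or 82.1% of the ATOH8 peak and 85.0% of the TCF3 peak, and the midpoints were 76 bp apart. The annotated span of CLDN16, a claudin gene of kidney epithelium, includes CLDN1, so both peaks also lie inside CLDN16.

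OCLN encodes occludin, a membrane protein of tight junction strands, and lies on the plus strand at chr5:69492547-69558104. The ATOH8 peak at its start, chr5:69492279-69493020, had a score of 88 and stood above 52.9% of the list. The TCF3 peak, chr5:69492805-69493826, again had a score of 36. It overlapped the ATOH8 peak by 215 bp, 29.0% of the ATOH8 peak and 21.1% of the TCF3 peak, and the midpoints were 666 bp apart. The second ATOH8 peak, chr5:69559895-69560437, scored higher (116), but its midpoint was 25 bp from the end of GTF2H2C, a gene for a transcription factor subunit, and 2062 bp beyond OCLN. This stretch of chromosome 5 has near-identical copies, so reads may have been placed at the wrong copy. No peak of either list lay within 1 kb of the copy annotated as OCLNP1. Copies of GTF2H2C were not checked, and the placement of reads was not tested.

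The shared score of 36 placed the TCF3 peaks at CLDN1 and OCLN close to the lowest score in their list, while the ATOH8 peaks they overlapped scored above the ATOH8 median. DSP was thus the only gene of the set whose end carried a peak above the list median for both factors.

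CDH1 encodes E-cadherin, the main cadherin of epithelial adherens junctions, and lies at chr16:68737292-68835537. Its ATOH8 peak, chr16:68737038-68738430, was 1392 bp wide, the widest of the 13, with a score of 143 that exceeded 84.5% of the list. It ran from 254 bp outside the lower-coordinate end to 1138 bp inside. The nearest TCF3 peak, chr16:68645262-68645681, had a score of 43.

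EPCAM encodes an epithelial cell surface adhesion protein and lies at chr2:47369311-47387020. Its ATOH8 peak, chr2:47368962-47370068, ran from 349 bp outside the lower-coordinate end to 757 bp inside and had a score of 112, above 70.9% of the list. The nearest TCF3 peak was 183.8 kb away, with a score of 96.

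CDH2 encodes N-cadherin, typical of neural and mesenchymal cells, and lies on the minus strand at chr18:27932879-28177130. It was the only gene of the set with TCF3 peaks and no ATOH8 peak. Its TCF3 peaks, chr18:27919035-27919485 and chr18:27921352-27922221, both had a score of 109, above 81.5% of the list, the same as the peak at DSP. They lay 13.6 kb and 11.1 kb beyond the lower-coordinate end, which is the 3′ end of the gene. The nearer peak overlapped CDH2-AS1, an antisense non-coding RNA gene. The nearest ATOH8 peak was 1384 kb away, with a score of 58. No peak of either list lay inside CDH2 itself or at its start.

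CLDN7 encodes claudin-7, a claudin of many simple epithelia, and lies on the minus strand at chr17:7259903-7263213. A single listed peak lay in the gene, the ATOH8 peak chr17:7260793-7261795, with a score of 101, above 63.7% of the list. It was inside the gene body, 683 to 1685 bp downstream of the nearer annotated start. The other 5 ATOH8 peaks of the window scored 63 to 163, and the 4 TCF3 peaks scored 36 to 70. Their midpoints were 8.3 to 39.4 kb and 20.7 to 39.8 kb from CLDN7. The window held 11 other protein-coding genes, and the nearest gene ends belonged to DLG4, ACADVL, GABARAP, ELP5 and YBX2. The ATOH8 peak of score 163 was 139 bp from the end of YBX2, a gene for a germ cell RNA-binding protein, and shared 358 bp with a TCF3 peak of score 46. The ATOH8 peak of score 63 and the TCF3 peak of score 70 shared 366 bp near the ends of DLG4 and ACADVL.

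CLDN4, which encodes claudin-4 of epithelial tight junctions, spans 1695 bp at chr7:73830996-73832690 on the plus strand and was the only gene of the set with no listed peak within 50 kb. Its nearest ATOH8 peak, chr7:73738395-73739478, had a score of 146, and its nearest TCF3 peak, 162.9 kb away, had a score of 106.

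**Figure D3:**
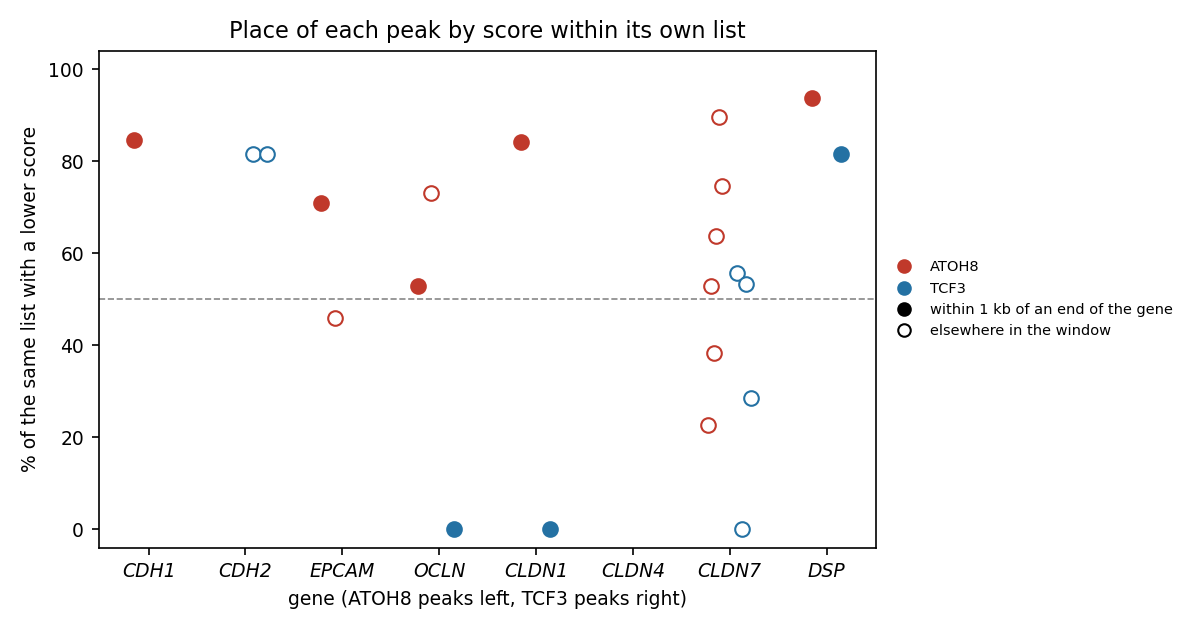
Share of the same list with a lower score, in percent, for each peak in the windows of the 8 genes, with ATOH8 left and TCF3 right of each gene and filled points for midpoints within 1 kb of an end of the gene. The 5 filled ATOH8 points lie between 52.9 and 93.7%, while 2 of the 3 filled TCF3 points lie at 0.0263%.

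Taken over the set, ATOH8 scores ranged from 63 to 180 with a median of 112, and 10 of the 13 peaks exceeded the list median of 84. TCF3 scores ranged from 36 to 109 with a median of 66, and 5 of the 9 exceeded the list median of 61. At gene ends the ATOH8 scores were 88, 112, 142, 143 and 180, all above the list median, and the TCF3 scores were 36, 36 and 109. The list medians cover peaks at any position, and no median was computed for peaks at gene ends. For 5 of the 13 ATOH8 peaks and 5 of the 9 TCF3 peaks the nearest end of any protein-coding gene was that of the gene itself. For the others it belonged to a neighbour.

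Sharing between the lists was counted as an overlap of at least 1 bp. In the set, 5 of 13 ATOH8 peaks (38.5%) shared a base with a TCF3 peak, and 28.8% of all ATOH8 peaks did so. Of the TCF3 peaks, 5 of 9 (55.6%) shared a base with an ATOH8 peak, and 12.5% of the whole TCF3 list did so. The shared pairs lay at OCLN, CLDN1 and DSP and, in the window of CLDN7, at the ends of YBX2 and of DLG4. All these pairs were at gene ends, while the shares of 28.8% and 12.5% count peaks at any position. Over all protein-coding genes, 17.6% had an ATOH8 midpoint within 1 kb of an end, 20.3% a TCF3 midpoint and 6.11% both. The share of shared peaks was not computed for gene ends alone. Only the pair at CLDN1 met a reciprocal overlap of 50%.

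The promoter sequences at the shared ends were examined next for E-boxes. They are not the full sequences under the peaks. Each peak reached beyond the window, and some windows were covered only in part. RefSeq windows on GRCh38 of 300 bases, from 250 before to 50 after a gene start, were held for 6 of the 8 genes (9 windows). An ATOH8 peak covered at least 1 base of 4 of the 9 windows, against 14.1% of 22132 windows of protein-coding genes. A TCF3 peak did so in 3 of the 9, against 13.6%, and both did so in 3, against 3.49%. The OCLN windows overlap each other and lay under the same ATOH8 peak, so they are not separate cases. The windows under a peak are given 5′ to 3′ on the gene's strand with each CANNTG in capitals. Their positions are chr6:7541421-7541720 (plus) for DSP, chr3:190322397-190322696 (minus) for CLDN1, and chr5:69492297-69492596 and chr5:69492540-69492839 (plus) for OCLN.
DSP: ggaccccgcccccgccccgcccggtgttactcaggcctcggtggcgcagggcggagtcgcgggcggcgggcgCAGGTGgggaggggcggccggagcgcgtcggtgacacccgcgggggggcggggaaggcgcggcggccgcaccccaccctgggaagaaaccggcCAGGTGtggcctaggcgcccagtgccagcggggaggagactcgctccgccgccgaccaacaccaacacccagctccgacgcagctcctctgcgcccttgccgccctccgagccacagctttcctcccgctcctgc
CLDN1: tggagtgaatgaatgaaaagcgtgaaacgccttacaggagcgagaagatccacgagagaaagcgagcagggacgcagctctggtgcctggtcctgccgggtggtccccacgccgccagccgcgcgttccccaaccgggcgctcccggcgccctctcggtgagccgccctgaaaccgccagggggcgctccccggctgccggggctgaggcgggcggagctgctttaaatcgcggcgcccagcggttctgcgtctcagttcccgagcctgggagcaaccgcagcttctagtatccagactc
OCLN, first window: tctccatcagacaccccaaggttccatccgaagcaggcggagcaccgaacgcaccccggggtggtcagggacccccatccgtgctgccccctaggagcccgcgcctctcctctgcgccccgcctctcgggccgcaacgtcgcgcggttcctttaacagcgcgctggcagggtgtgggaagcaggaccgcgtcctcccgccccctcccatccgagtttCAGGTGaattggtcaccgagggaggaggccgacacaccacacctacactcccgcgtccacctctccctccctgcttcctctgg
OCLN, second window: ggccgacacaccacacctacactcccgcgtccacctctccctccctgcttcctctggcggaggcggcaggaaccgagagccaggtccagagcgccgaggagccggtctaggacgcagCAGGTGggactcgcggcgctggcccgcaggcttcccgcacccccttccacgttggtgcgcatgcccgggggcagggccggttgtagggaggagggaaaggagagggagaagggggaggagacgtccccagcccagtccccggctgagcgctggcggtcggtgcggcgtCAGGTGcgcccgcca

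In DSP both peaks covered the whole window, which held 2 matches, both CAGGTG, starting 178 and 85 bases before the gene start. The ATOH8 peak covered both OCLN windows. The first had a single CAGGTG, 33 bases before its start, and the second had 2, starting 133 bases before and 35 bases after its start. The TCF3 peak reached only the last 34 bases of the second OCLN window, to within 1 base, since the lists do not say whether they count from 0 or 1. This stretch holds the CAGGTG after the start. The CLDN1 window had 93 bases under the ATOH8 peak and 9 under the TCF3 peak, with the same limit, and held no CANNTG. No match there says only that these letters are absent from this window.

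The windows of CLDN7 and CLDN4 are shown for contrast, since no listed peak covered them. They are chr17:7263164-7263463 and chr17:7262429-7262728 (minus) for CLDN7 and chr7:73830746-73831045 (plus) for CLDN4.
CLDN7, upstream window: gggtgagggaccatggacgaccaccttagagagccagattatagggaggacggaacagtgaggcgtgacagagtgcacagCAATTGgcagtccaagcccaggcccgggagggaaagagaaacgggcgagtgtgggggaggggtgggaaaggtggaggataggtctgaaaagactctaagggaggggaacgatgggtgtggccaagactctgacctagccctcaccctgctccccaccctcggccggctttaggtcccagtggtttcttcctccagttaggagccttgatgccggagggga
CLDN7, internal window: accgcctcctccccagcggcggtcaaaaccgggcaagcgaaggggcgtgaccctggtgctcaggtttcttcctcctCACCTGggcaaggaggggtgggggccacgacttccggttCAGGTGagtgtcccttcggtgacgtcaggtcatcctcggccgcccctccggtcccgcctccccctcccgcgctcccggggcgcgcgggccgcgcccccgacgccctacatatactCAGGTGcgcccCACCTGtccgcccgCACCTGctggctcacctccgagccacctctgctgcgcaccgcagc
CLDN4: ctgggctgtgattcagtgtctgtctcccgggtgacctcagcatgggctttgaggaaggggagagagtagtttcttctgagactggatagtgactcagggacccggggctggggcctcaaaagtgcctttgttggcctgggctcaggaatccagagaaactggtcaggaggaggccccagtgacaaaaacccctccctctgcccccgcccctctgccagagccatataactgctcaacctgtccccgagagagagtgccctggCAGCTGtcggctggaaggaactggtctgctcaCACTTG

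The internal CLDN7 window held 5 matches, the most of the 9 windows, and all 5 were CAGGTG or its reverse complement CACCTG. The ATOH8 peak in CLDN7 lay 683 bp downstream of this start. CLDN4 had 2 matches, CAGCTG and CACTTG, both after its start, and the upstream CLDN7 window had CAATTG alone. CDH2 had no match in the window at its upstream start and CAGATG in its other window, and no peak covered either.

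Both strands were searched, and CANNTG includes the 3 narrower motifs. Over all protein-coding windows, CANNTG occurred in 65.1%, CAGGTG in 20.0%, CAGCTG in 18.0% and CATATG in 2.03%. In the set, CANNTG occurred in 7 of 9 windows, CAGGTG in 4, CAGCTG in 1 and CATATG in 0. The windows with CAGGTG were both overlapping OCLN windows, that of DSP and the internal one of CLDN7. Among windows under an ATOH8 peak anywhere, 26.7% held CAGGTG, under a TCF3 peak 20.2%, and under neither 18.8%. For CAGCTG these shares were 22.8, 15.5 and 17.6%, so CAGGTG was not alone in being more frequent under ATOH8 peaks. For CATATG they were 0.672, 0.929 and 2.42%, and for CANNTG 62.7, 54.2 and 67.0%.

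Over all protein-coding windows base composition moved with the peaks, while within the set the ranges overlapped. The 4 windows of the set under an ATOH8 peak had 67.0 to 77.0% G and C, and the 5 others had 40.7 to 71.7%. Over all protein-coding windows the median was 70.7% under an ATOH8 peak, 71.7% under a TCF3 peak, 74.0% under both and 59.3% under neither. Its part in the peaks of these genes was not tested.

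The genes were then set beside other junction and adhesion genes, in 5 lists with 89 genes in all. Within 50 kb, 41 of the 89 had an ATOH8 peak, 55 had a TCF3 peak and 30 had both (46.1%, 61.8% and 33.7%). Over all protein-coding genes these shares were 43.6%, 53.7% and 28.1%. Within 5 kb, 26 of the 89 had an ATOH8 peak (29.2%, against 25.1% of all protein-coding genes), 40 had a TCF3 peak (44.9%, against 32.9%) and 11 had both (12.4%, against 11.8%). The 41 genes had 38 distinct highest ATOH8 peaks between them, and for CDH3, MARVELD2 and CLDN16 that peak was a peak of CDH1, OCLN or CLDN1.

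**Figure D4:**
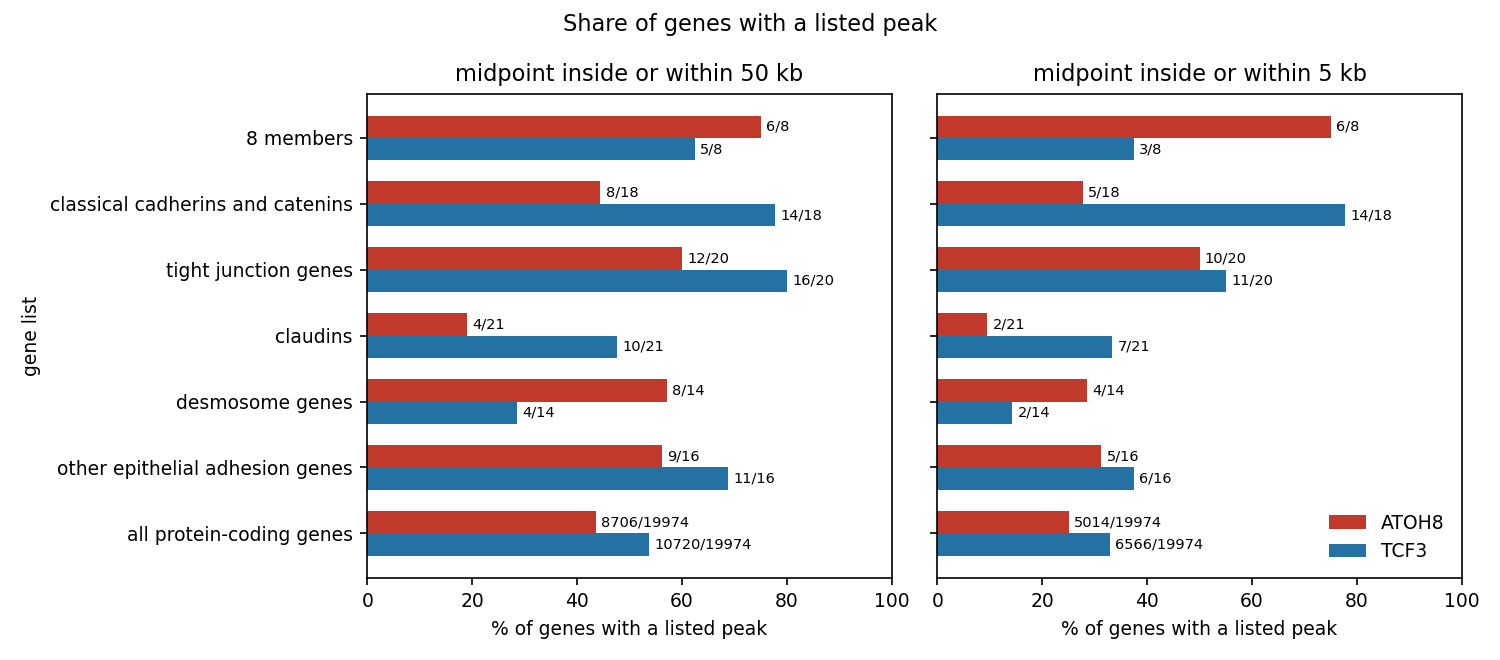
Percent of genes with a listed peak whose midpoint lay inside the gene or within 50 kb (left) or 5 kb (right), for ATOH8 and TCF3, in the 8 genes, 5 wider lists and all protein-coding genes, with counts beside the bars. The 8 genes had the highest ATOH8 share at both window sizes, 6 of 8, and claudins outside the set the lowest, 4 of 21 and 2 of 21. The median length of these claudin genes was 3.47 kb, against 24.2 kb over all protein-coding genes.

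Among 18 cadherin, catenin and nectin genes, 8 had an ATOH8 peak and 14 a TCF3 peak within 50 kb. The shares over all protein-coding genes were 43.6% and 53.7%. The highest ATOH8 scores were at CDH3, which encodes P-cadherin (143, the peak of CDH1, 4.0 kb from CDH3), NECTIN4 (138) and JUP, which encodes plakoglobin (127). The highest TCF3 peaks lay inside CTNND2, a delta-catenin gene (240), NECTIN1 (227) and CDH4, which encodes R-cadherin (215). Like CDH2, CDH4 had TCF3 peaks and no ATOH8 peak in its window. This held for 8 of the 18 genes and for 25.6% of all protein-coding genes. The median length of the 18 genes was 122.8 kb, against 24.2 kb over all protein-coding genes, and no share was adjusted for length.

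Of 14 further desmosome genes, 8 had an ATOH8 peak and 4 a TCF3 peak (43.6% and 53.7% of all protein-coding genes). The highest ATOH8 peak, with a score of 232, lay inside DSG2, which encodes desmoglein-2, and was also the highest in the window of DSG3. A TCF3 peak of score 69 lay there too. PKP2, which encodes the plaque protein plakophilin-2, had an ATOH8 peak of score 171 and no TCF3 peak. The highest TCF3 score of this list was 88, 45.8 kb from PKP3.

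Of 21 further claudin genes, 4 had an ATOH8 peak and 10 a TCF3 peak (43.6% and 53.7% of all protein-coding genes). The ATOH8 scores were highest for CLDN3 (146, 30.1 kb away), CLDN16 (142, the peak of CLDN1) and CLDN6 (103, 10.1 kb away and shared with CLDN9). The peak of CLDN3 is the same that was nearest to CLDN4. The highest TCF3 scores were at CLDN18 (120) and CLDN11 (116), inside the genes, and CLDN25 (93, 9.1 kb away). None of these 21 claudin genes had an ATOH8 midpoint within 1 kb of an end, against 17.6% of all protein-coding genes. Their median length was 3.47 kb, against 24.2 kb over all protein-coding genes, and no share was adjusted for length.

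Of 20 other tight junction and polarity genes, 12 had an ATOH8 peak and 16 a TCF3 peak (43.6% and 53.7% of all protein-coding genes). PARD6B, which encodes a polarity protein, had an ATOH8 peak of score 140 centred 144 bp from its end and a TCF3 peak of score 114 inside the gene. SYMPK had the highest ATOH8 score (1530), from a peak 33.9 kb away, and F11R the next after PARD6B (138, 24.5 kb away, shared with NECTIN4). JAM3, a junctional adhesion molecule gene, had the highest TCF3 score (201), followed by LSR (120). Of 16 other epithelial adhesion genes, 9 had an ATOH8 peak and 11 a TCF3 peak (43.6% and 53.7% of all protein-coding genes). SPINT2, which encodes a membrane protease inhibitor, had an ATOH8 peak of score 275 centred 14.5 bp from its end, ITGB4, which encodes an integrin of hemidesmosomes, had 183 at 21.4 kb, and SPINT1 had 136 at 48.3 kb. The highest TCF3 scores were 99 inside ITGB1, 98 at 22.8 kb from PRSS8 and 92 at 41.8 kb from OVOL1.

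Likeness to DSP, the gene of the set with the highest ATOH8 score, was measured as the distance in the log2 of the highest ATOH8 score and of the highest TCF3 score, over these 2 libraries. Among 30 genes of the 5 lists with both factors, the nearest were PKP3 (distance 0.32; scores 169 and 88), PARD6B (0.37; 140 and 114) and ITGB4 (0.52; 183 and 76). Of these, PARD6B had both peaks within 1 kb of an end, as DSP did.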

How the data were processed

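The labels name ChIP-seq libraries from DU145 cells for ATOH8 (Flag tag) and TCF3 (Myc tag), 1 of each with 1 input. Each peak list was tied to an immunoprecipitation by the factor it is named for. The inputs were not analysed here. Each deposited list gives a chromosome, start, end and a peak score as the authors made it. The labels and headers do not state how peaks were called and scored, with which threshold, or whether the input was used. The build is hg38 per the submitters' processing notes, and positions are printed as listed. Lines that held no peak (3 for ATOH8, 5 for TCF3) were left out.

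Gene positions, strands and promoter windows came from RefSeq on GRCh38.p14. Strands were held only with promoter windows, so for CDH1 and EPCAM ends are named by coordinate. Distances run from the peak midpoint to the gene, ranks and percentages use all peaks of a list, and equal scores share the best rank. Shares over all genes count 19974 protein-coding genes on chromosomes 1 to 22 and X. Gene windows differ in length, and no share was adjusted for length or gene density. With 1 library per factor no test was made.

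The 8 genes and the wider lists were chosen with earlier results of these data known. Named genes were the 8, the 3 with the highest-scoring peak per wider list and factor, and the 3 nearest to DSP by score. CLDN9, MARVELD2 and genes next to the peaks were named after values were seen. Details of 1 ATOH8 peak in the window of EPCAM are not reported here. Alternatives were windows of 5 kb and 100 kb, any base of the peak, the higher-scoring 50% of peaks, stricter overlaps, and a TCF3 list cut to the length of the ATOH8 list. The finding of peaks inside genes was checked on simulated peaks placed at gene midpoints. The arithmetic of the 1 bp overlap was checked on shifted copies of these peaks. Assignment within 50 kb was not checked in this way. Computations used Python 3.11.15, pandas 2.3.3, numpy 2.4.6 and matplotlib 3.10.9.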

Additional observations from a re-analysis of the deposited data

How the results depend on the processing

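The number of genes with an ATOH8 peak was 6 of 8 at 5 kb (25.1% of all protein-coding genes) and with the higher-scoring 50% of peaks (27.1%). It was 7 at 100 kb (55.5%). With any base of the peak in the window it was 6, and the share over all genes was not computed for that rule. Taking any base of the peak changed none of the 6 counts. At 5 kb, 3 genes had a TCF3 peak (32.9% of all protein-coding genes), 7 ATOH8 and 3 TCF3 peaks remained and 3 ATOH8 peaks were shared. These lower counts follow by construction from a narrower window. At 100 kb there were 14 TCF3 peaks and 8 shared ATOH8 peaks. With the higher-scoring 50% of peaks, 3 genes had a TCF3 peak (33.9% of all protein-coding genes), 2 had both (12.1%), 5 TCF3 peaks remained and 1 ATOH8 peak was shared. A reciprocal overlap of 50% left 1 shared ATOH8 peak, and so did midpoints within 200 bp. With the TCF3 list at the length of the ATOH8 list, 3 genes had a TCF3 peak (30.4%) and 2 had both (16.5%). No paired analysis was possible because each group had 1 library and no result came from a test. For the same reason no library could be left out. Without read depth, absent peaks cannot be told apart from peaks below the lists' lowest scores or in their skipped stretches.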
